A study of Mus musculus with 2 samples.

Results

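This report describes Hprt together with 9 further genes of purine nucleotide supply, namely Adk, Ppat, Gart, Pfas, Paics, Adsl, Atic, Impdh1 and Impdh2, in wild-type and H3.3 G34R mouse embryonic stem (ES) cells. All 10 were found by gene name among the 26127 features that the study quantitated, and all 10 passed a filter of at least 0.25 RPKM in 1 sample. Hprt was chosen by its own difference between these libraries, so its values are given as a description without a test. The 9 other genes were chosen by their place in purine metabolism, to show whether their levels differed along with that of Hprt.

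The WT sample was unmodified ES cells (H3f3a+/+; H3f3b+/+). The G34R sample was ES cells that carry a single targeted H3f3a G34R allele beside a WT copy (H3f3a+/G34R; H3f3b+/+), in which Cre recombinase had brought the mutant coding sequence under the endogenous H3f3a promoter. Both were of strain 129S1/SvImJ, were below passage 20 and grew in medium with 15% foetal calf serum and leukaemia inhibitory factor. Each was sequenced as 1 library from 500 ng of total RNA, so no value here has a replicate, and effects of genotype, clone and culture cannot be told apart. How many mutant clones stand behind the G34R library is not given in the sources used here.

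Values are RPKM, reads scaled to transcript length and to the reads of the library. Ratios are log2 (G34R/WT RPKM) after raising any lower value to 0.01 RPKM. Reads per gene were estimated from the RPKM, the merged exon length and a library depth read from the RPKM steps of short genes, 87.9 M reads in WT and 72.45 M reads in G34R cells. Intervals are 95% counting intervals on these estimates and hold no culture-to-culture variation. The 12 ES cell markers lay between 16.4 and 708 RPKM in both libraries. Of these, 2 were more than 2-fold lower in G34R cells, beside 9.64% of all features above the filter. They were Zfp42, 11.0-fold lower at 180.3 RPKM in WT and 16.4 RPKM in G34R cells, and Nanog at 127.07 and 52.24 RPKM. Of the 10 fibroblast and feeder markers, Lum, Dcn and Postn were at 0 in both libraries and the list summed to 7.04 RPKM in WT and 3.99 RPKM in G34R cells. H3f3a, the targeted gene, had 8.17 RPKM in WT and 4.89 RPKM in G34R cells, a value that does not separate its alleles.

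Cells obtain purine nucleotides along different routes. De novo synthesis builds inosine monophosphate (IMP) from phosphoribosyl pyrophosphate (PRPP), amino acids and folate-borne carbon, through the enzymes encoded by Ppat, Gart, Pfas, Paics, Adsl and Atic. IMP is then turned into guanine nucleotides through IMP dehydrogenase (Impdh1, Impdh2) or into adenine nucleotides, where Adsl acts again. Salvage recycles free bases and nucleosides. Hprt joins hypoxanthine or guanine to PRPP, and Adk phosphorylates adenosine. Hprt is X-linked, its loss in humans causes Lesch-Nyhan disease, and in cultured cells it is a classical gene for selection, since cells without it resist 6-thioguanine and die in HAT medium.

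Upstream sequences are shown for Hprt, which differed most, and for Gart and Impdh2, which had high and similar levels in both libraries. They are the 250 bases before the RefSeq start in the GRCm38.p6 build, 5′ to 3′ on the strand of the gene. Hprt lies at chrX:52987828-52988077 (plus strand), Gart at chr16:91646973-91647222 (minus strand) and Impdh2 at chr9:108560186-108560435 (plus strand). Capitals mark the GC box GGGCGG, searched on both strands, and the E-box CACGTG.
Hprt: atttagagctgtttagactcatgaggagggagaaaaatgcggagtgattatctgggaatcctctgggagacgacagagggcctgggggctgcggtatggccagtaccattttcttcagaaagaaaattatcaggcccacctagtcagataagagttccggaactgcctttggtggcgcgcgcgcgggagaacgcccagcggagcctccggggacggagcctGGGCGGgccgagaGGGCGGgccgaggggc
Gart: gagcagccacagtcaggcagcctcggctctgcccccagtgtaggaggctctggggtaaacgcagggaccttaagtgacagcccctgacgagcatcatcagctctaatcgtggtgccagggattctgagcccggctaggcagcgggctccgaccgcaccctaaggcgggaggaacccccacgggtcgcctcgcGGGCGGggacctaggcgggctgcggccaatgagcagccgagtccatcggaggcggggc
Impdh2: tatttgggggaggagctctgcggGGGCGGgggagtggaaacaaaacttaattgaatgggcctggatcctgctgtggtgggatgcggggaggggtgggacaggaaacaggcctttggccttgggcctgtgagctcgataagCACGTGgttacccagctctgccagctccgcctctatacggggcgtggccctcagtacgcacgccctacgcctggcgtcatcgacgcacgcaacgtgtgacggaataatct

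RefSeq windows were matched for 9 of the 10 genes, all but Pfas, with 11 windows in all because Adk and Impdh1 have more than 1 start. A GC box was present in 11 of the 11 windows, against 32.7% of all 32841 windows and 62.1% of the 5113 windows of genes with at least 5 RPKM in 1 sample. The Hprt window held 2 GC boxes. An E-box, the motif bound by Myc proteins among others, lay in 3 of the 11 windows (Paics, Atic and Impdh2), against 6.02% of all windows and 9.90% of those of genes with at least 5 RPKM. The letters TATAAA were in none of the 11 windows on either strand, against 12.4% of all windows and 5.55% of those of genes with at least 5 RPKM. The windows held 10 to 24 CpG dinucleotides, with a median of 6 over all windows and 17 over those of genes with at least 5 RPKM. These matches describe letters only.

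Hprt was the gene of the group that differed most between the libraries. It had 1.31 RPKM in WT and 48.39 RPKM in G34R cells, 36.9-fold higher in G34R cells, with a log2 ratio of 5.21 (counting interval 4.97 to 5.46). In WT cells it was the lowest of the 10 genes and in G34R cells it was the 4th highest, above Pfas and below Paics. The estimated reads were 148 in WT (Poisson interval 125 to 174) and 4519 in G34R cells (4388 to 4653), so the low WT value was well above 0. Among the 13366 features with at least 0.25 RPKM in 1 sample, its level stood above 27.5% of features in WT cells and above 96.0% in G34R cells.

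**Figure D1:**
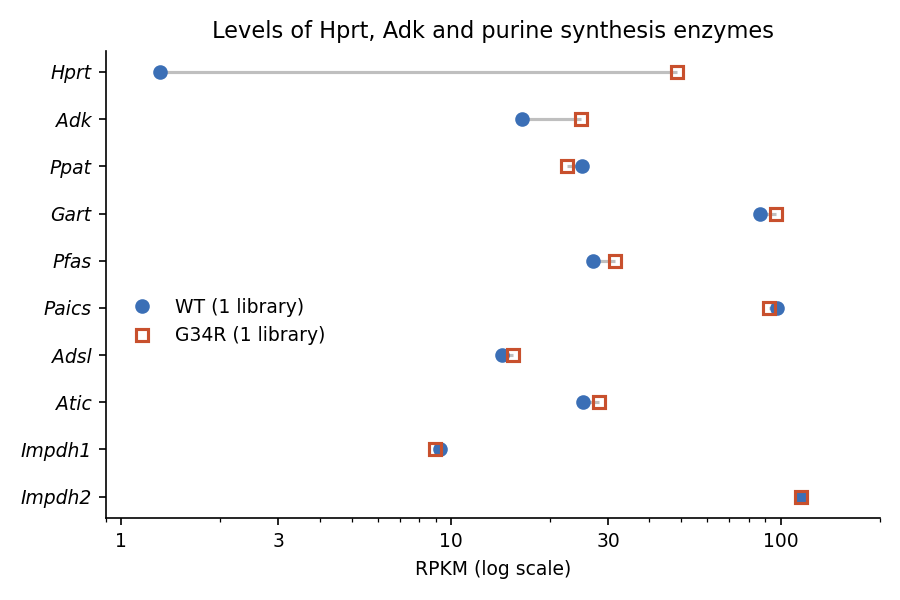
RPKM of the 10 genes on a log scale, with filled circles for the WT library and open squares for the G34R library, joined by a grey line. Hprt runs from 1.31 to 48.39 RPKM, while the symbols of the 9 other genes lie close together, the widest pair being Adk at 16.41 and 24.86 RPKM.

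Few features differed as far as Hprt. Of the 13366 features, 101 (0.756%) had a ratio at least as far from 0 in either direction, and 11 had a larger rise in G34R cells. Among those with at least 5 RPKM in 1 sample, 4 had a larger rise, namely Olig2, Olig1, Apoa2 and Gm17669, and each of these was below 0.2 RPKM in WT cells. Hprt was the only one of 772 features with at least 40 RPKM in 1 sample whose ratio was this far from 0. That cut lies close below its own 48.39 RPKM in G34R cells, and Hprt was chosen by this ratio. In absolute RPKM, 37 features gained more than the 47.08 RPKM of Hprt.

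Of the 10 genes, 1 passed 2-fold (Hprt, higher in G34R cells) and 9 did not. Over all features 15.4% passed 2-fold, 5.79% higher and 9.64% lower in G34R cells. The gene next to the threshold on its other side was Adk at 1.51-fold. The rule that picked Hprt used this ratio, so the count says nothing about the group. The 9 other genes had a median log2 ratio of 0.11, between -0.16 and 0.60, beside a median of -0.07 and an interquartile range of -0.42 to 0.27 over all features with at least 0.25 RPKM.

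**Figure D2:**
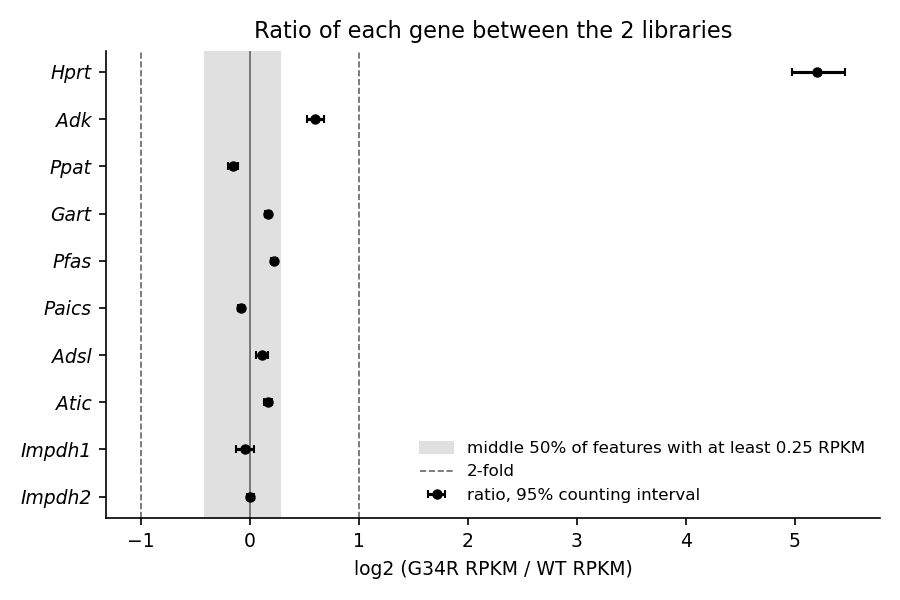
Log2 (G34R/WT RPKM) of the 10 genes, with bars for the 95% counting interval, a grey band for the middle 50% of features with at least 0.25 RPKM and dashed lines at 2-fold. Hprt lies at 5.21, Adk at 0.60 lies right of the band, and the 8 others lie inside it.

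Adk, which encodes adenosine kinase, was the other salvage gene of the group. It had 16.41 RPKM in WT and 24.86 RPKM in G34R cells, with a log2 ratio of 0.60 (counting interval 0.52 to 0.68). This was the second largest ratio of the group, yet 30.7% of all features above the filter had one at least as far from 0. That share includes features of much lower level, and a share among features of like level was not taken. Its start lies 125 bp from that of Ap3m1, which is read in the opposite direction. Ap3m1 had 4.38 RPKM in WT and 3.18 RPKM in G34R cells, with a log2 ratio of -0.46, so these divergent neighbours differed in opposite directions.

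The enzymes of de novo synthesis had closely similar levels in both libraries. None of the 6 passed 2-fold, where 15.4% of all features did. Their median log2 ratio was 0.14, and the sum of their RPKM was 275.9 in WT and 286.7 in G34R cells. Their ratios lay between -0.16 (Ppat) and 0.22 (Pfas), and 66.4% of all features differed at least as far as Pfas. Both shares include features of much lower level, and shares among features of like level were not taken. The signs of these 6 ratios held under each other scaling and pseudocount tried.

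Ppat encodes the amidotransferase that commits PRPP to the pathway. It had 25.07 RPKM in WT and 22.46 RPKM in G34R cells, with a log2 ratio of -0.16 (-0.20 to -0.11). Gart, a fused enzyme that acts at several of the following steps, had 86.91 RPKM in WT and 97.15 RPKM in G34R cells, with a log2 ratio of 0.16 (0.14 to 0.18). Pfas, the synthase that adds nitrogen from glutamine, had 27.06 RPKM in WT and 31.48 RPKM in G34R cells, with a log2 ratio of 0.22 (0.19 to 0.25). The early enzymes thus went either way by small amounts, each outside its counting interval around 0 but far inside 2-fold.

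Paics, a fused carboxylase and ligase, had 97.43 RPKM in WT and 91.99 RPKM in G34R cells, with a log2 ratio of -0.08 (-0.11 to -0.06). Adsl, the lyase used in IMP synthesis and again on the way to AMP, had 14.32 RPKM in WT and 15.48 RPKM in G34R cells, with a log2 ratio of 0.11 (0.06 to 0.17). Atic, which closes the ring to IMP, had 25.09 RPKM in WT and 28.11 RPKM in G34R cells, with a log2 ratio of 0.16 (0.13 to 0.20). The order of the 6 differed little between the libraries. Paics and Gart were the highest and Adsl the lowest in each, with Gart above Paics in G34R cells only. Atic and Ppat could not be ordered in WT cells, at 25.09 and 25.07 RPKM.

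Ppat and Paics lie head to head on chromosome 5 (mm9), Ppat on the minus strand from 77342274 to 77380603 and Paics on the plus strand from 77380332 to 77396534. Their annotated 5′ ends overlap by 272 bp. Both were slightly lower in G34R cells, and Paics had 3.89 times the RPKM of Ppat in WT cells and 4.10 times in G34R cells. The quantitation was strand-specific, so reads of the overlap could be assigned by strand. The other members lie apart, with Atic on chromosome 1, Impdh1 on 6, Impdh2 on 9, Pfas on 11, Adk on 14, Adsl on 15, Gart on 16 and Hprt on X.

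The IMP dehydrogenases, which lead to guanine nucleotides, had the most similar values of all. Impdh2, the more abundant form, had 115.35 RPKM in WT and 115.43 RPKM in G34R cells, the highest of the group in each library, with a log2 ratio of 0.001 (-0.03 to 0.03). Impdh1 had 9.26 RPKM in WT and 8.97 RPKM in G34R cells, with a log2 ratio of -0.05 (-0.13 to 0.04). Both counting intervals span 0, and the sign of each turned with another scaling (Impdh1 to 0.009 and Impdh2 to -0.07). Impdh2 had 12.5 times the RPKM of Impdh1 in WT and 12.9 times in G34R cells.

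The Impdh2 value carries a limit of its own. Of its 995 exonic words of 50 bases, the read length, 91.4% occur again elsewhere in the mm9 genome, and 903 of them lie in Gm15210 on chromosome 8, which is not among the quantitated features. How reads were shared between these copies was not tested. Hprt, Adk, Gart and Impdh1 had 0 such words. Paics had 6.60% of its words elsewhere, Adsl 1.91%, Pfas 1.30%, Atic 0.656% and Ppat 0.618%. All 881 exonic words of Hprt were found once in the genome, so none of its exonic words had an exact copy elsewhere.

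**Figure D3:**
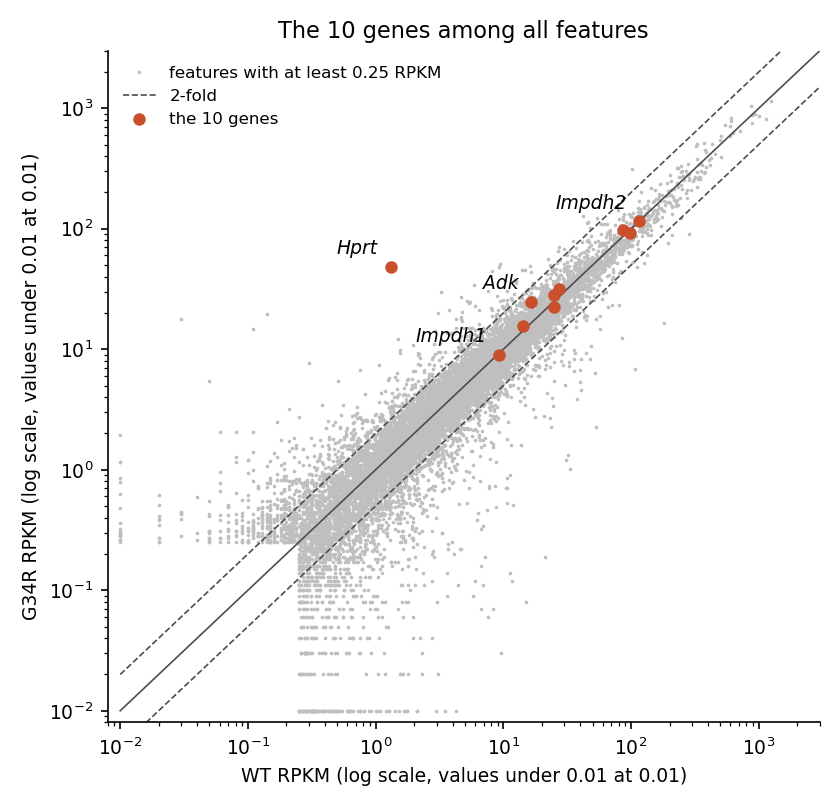
RPKM in G34R against WT cells for the 13366 features with at least 0.25 RPKM in 1 sample (grey) and the 10 genes (red), on log axes with values under 0.01 drawn at 0.01; solid line, equal values; dashed lines, 2-fold. Hprt lies far above the upper dashed line at 1.31 and 48.39 RPKM, and the 9 others lie between the dashed lines.

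Within a library, Hprt can be set against other genes without any scaling between libraries. The RPKM of Hprt was 0.0157 times that of Aprt, the adenine counterpart of Hprt in base salvage, in WT cells and 0.485 times in G34R cells. Against Adk it was 0.0798 times in WT and 1.95 times in G34R cells. Against the summed RPKM of the 6 de novo enzymes it was 0.00475 times in WT and 0.169 times in G34R cells. Each of these ratios differed more than 24-fold between the libraries. Hprt was chosen by its own ratio, so they restate that difference and add nothing to it. The ratio of Impdh2 to Impdh1, limited by the repeated words of Impdh2, differed by 1.03-fold.

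The genes around Hprt did not share its difference. Hprt spans 50341314 to 50374836 on the plus strand of chromosome X (mm9), in 9 exons that sum to 1289 bp. Of the 23 features whose start lies within 1 Mb, 12 had at least 0.25 RPKM in 1 sample. None of these 12 was more than 2-fold higher in G34R cells and 4 were more than 2-fold lower, beside the 5.79% and 9.64% of all features. The median log2 ratio of the 23, features at 0 in both libraries included, was -0.45, and -0.05 over the 11 within 0.5 Mb. The wider X chromosome had a median of -0.25 over the 490 X features with at least 0.25 RPKM.

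Upstream, Phf6, whose start lies at -75.9 kb from that of Hprt, had 3.95 RPKM in WT and 3.81 RPKM in G34R cells, with a log2 ratio of -0.05 (-0.14 to 0.04). Farther upstream, Ccdc160 had 1.78 and 2.18 RPKM, and the glypican genes Gpc3 and Gpc4 had 8.07 and 4.14 RPKM and 3.70 and 6.59 RPKM, in WT and G34R cells respectively. Gpc4, at a log2 ratio of 0.83, was the highest ratio among the neighbours. Downstream, C430049B03Rik, the feature with the nearest start, had 0.13 RPKM in WT and 0.05 RPKM in G34R cells, on an estimated 18 and 6 reads. Farther downstream, Fam122b had 4.11 and 3.10 RPKM and Mospd1 had 1.12 and 0.82 RPKM. Still farther downstream, the named neighbours had lower values in G34R cells, with Cxx1a at 1.62 and 0.59 RPKM, Cxx1b at 1.58 and 1.10 RPKM and 1700013H16Rik at 7.64 and 0.06 RPKM in WT and G34R cells.

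**Figure D4:**
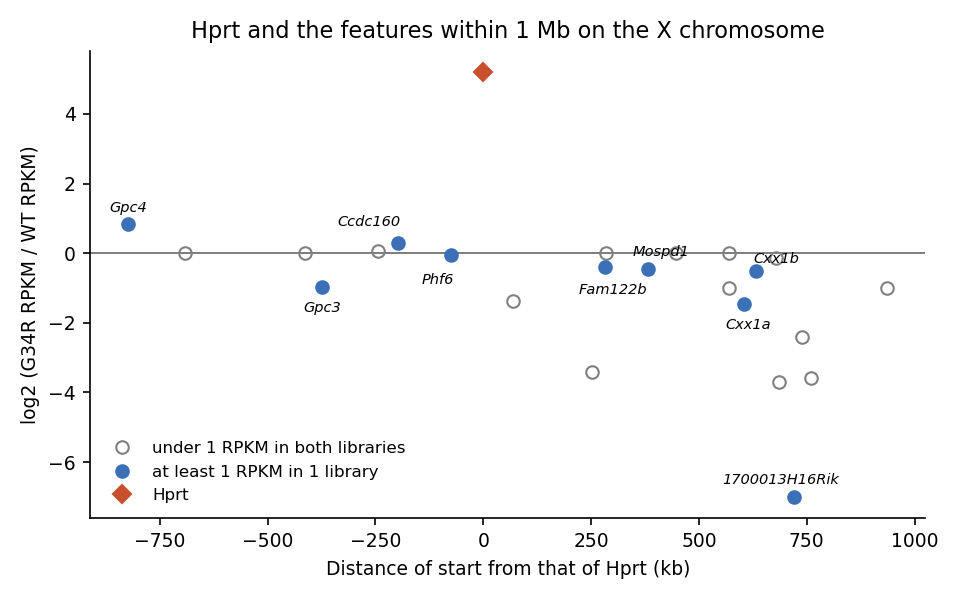
Log2 (G34R/WT RPKM) of Hprt (diamond) and of the 23 features whose start lies within 1 Mb of its start, against distance in kb; filled circles had at least 1 RPKM in 1 library and open circles less. Hprt stands at 5.21, and every neighbour lies at or below 0.83.

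The features with the start nearest to the 9 other members, Ppat and Paics left aside as each other's nearest, numbered 7. Their log2 ratios were below 0 for 6 and above 0 for 1, with a median of -0.46 and 1 of them past 2-fold, lower in G34R cells. Ap3m1, beside Adk, is given above. Son starts 554 bp from Gart on the other strand and had 18.00 RPKM in WT and 17.79 RPKM in G34R cells, and its log2 ratio of -0.02 is smaller than the shift of 0.05 under centring on the median feature. The 1 with a ratio above 0 was 1500010J02Rik, nearest to Pfas, which had 10.77 and 16.57 RPKM, and Ndufaf3, nearest to Impdh2, had 7.83 and 6.93 RPKM. Sgsm3, nearest to Adsl, had 6.30 and 4.17 RPKM. Apol7d, nearest to Atic, and Prrt4, nearest to Impdh1, were weak, at 0.30 and 0.17 RPKM and at 0.42 and 0.19 RPKM. Prrt4 was the 1 past 2-fold, on an estimated 126 and 47 reads.

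No feature had a pattern close to that of Hprt. By the distance between log2 RPKM over the 2 samples, the nearest was Rpl29, a ribosomal protein gene, at 3.25 RPKM in WT and 29.92 RPKM in G34R cells and a distance of 1.48 log2 units. Nlrp4f (3.06 and 20.00 RPKM), Gsto1 (3.78 and 21.32 RPKM), Grb10 (4.64 and 27.12 RPKM) and Sox11 (1.51 and 12.11 RPKM) followed at 1.77 to 2.01 units. With 2 samples this likeness is a matter of level and ratio only. Each of the 5 had a smaller ratio than Hprt, between 2.50 and 3.20.

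Beyond the 10 genes, lists of the surrounding pathways held 107 further features, of which 95 had at least 0.25 RPKM in 1 sample. Of these 95, 2 were more than 2-fold higher and 4 more than 2-fold lower in G34R cells (6.32% in all, against 15.4% of all features), and their median log2 ratio was -0.12. The higher ones were Pnp2 and Mthfd2l, and the lower ones Ak7, Slc43a3, Slc23a1 and Mxd1. Mthfd2l, Slc43a3, Slc23a1 and Mxd1 stayed under 1 RPKM in both libraries and are named here after their values were seen. The counts past 2-fold in each list below stand beside the same 15.4% of all features, so a low count in a short list says little.

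Salvage was the list with the highest median. Without Hprt, its 7 genes had a median log2 ratio of 0.60, 6 of them above 0 and 1 past 2-fold. That gene was Pnp2, at 8.95 RPKM in WT and 19.56 RPKM in G34R cells, with a log2 ratio of 1.13 (1.02 to 1.24). Pnp and Pnp2 encode purine nucleoside phosphorylases, which release the hypoxanthine and guanine that Hprt takes up, and Pnp had 17.28 and 26.76 RPKM. Of the 50-base words of Pnp2, 291 (27.0%) occur elsewhere in the genome, and all 291 lie in Pnp, so how reads were split between them is uncertain. Of those of Pnp 41.0% occur elsewhere, the 291 in Pnp2 and 794 on chromosome 14 outside annotated genes, which limits the Pnp value and the sum as well. The sum of Pnp and Pnp2 was 26.23 RPKM in WT and 46.32 RPKM in G34R cells.

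Aprt, the highest of the salvage list, had 83.43 RPKM in WT and 99.72 RPKM in G34R cells, with a log2 ratio of 0.26. It lies on chromosome 8, where the median of 729 features was 0.35, and the part of that shift in the Aprt value was not tested. Dguok, which phosphorylates deoxyguanosine in mitochondria, had 2.90 and 4.87 RPKM. Mtap, which splits methylthioadenosine, had 12.21 and 13.47 RPKM, and the deoxycytidine kinase gene Dck had 9.35 and 8.01 RPKM. Dck was thus the 1 salvage gene with a ratio below 0, at -0.22.

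**Figure D5:**
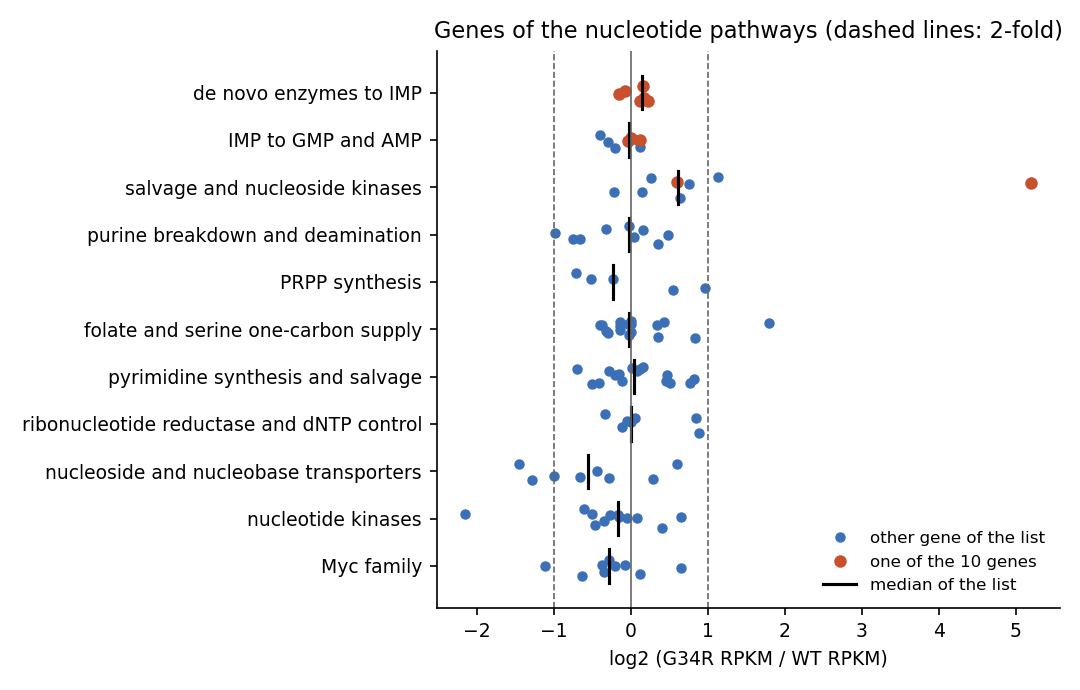
Log2 (G34R/WT RPKM) of the genes of each pathway list with at least 0.25 RPKM in 1 sample, with the 10 genes in red, the other genes in blue, a black bar at the median of each list and dashed lines at 2-fold. Hprt is the red point at 5.21 in the salvage list, whose median with Hprt is 0.62, and the de novo enzymes lie between -0.16 and 0.22.

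The steps that flank the members held few differences past 2-fold. Of the 8 genes from IMP to GMP and AMP, Adsl and both Impdh genes included, 0 passed 2-fold and the median was -0.02. Adss, which takes IMP towards AMP, had 17.98 and 19.57 RPKM, and Gmps, which completes GMP, had 8.88 and 9.36 RPKM in WT and G34R cells. Of the 9 breakdown and deamination genes above the filter, 0 passed 2-fold, with 4 above 0, 5 below and a median log2 ratio of -0.03. Nt5c, the highest of them, had 6.07 and 8.44 RPKM. The ratio farthest from 0 was that of Ampd3, at 1.35 and 0.68 RPKM, a log2 ratio of -0.99.

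PRPP, the substrate that Hprt and Ppat share, is made by the Prps enzymes. Of the 5 genes of this list above the filter 0 passed 2-fold, with 2 above 0 and 3 below. Prps1 had 19.80 RPKM in WT and 28.80 RPKM in G34R cells, with a log2 ratio of 0.54. Prps2, on X like Prps1, had 13.42 and 8.16 RPKM, a log2 ratio of -0.72. Prps1 and Prps2 thus differed in opposite directions, and Prps1l3 had 22.58 and 19.24 RPKM, a log2 ratio of -0.23. The genes of the associated proteins, Prpsap1 (8.49 and 16.53 RPKM) and Prpsap2 (9.62 and 6.68 RPKM), also differed in opposite directions. Of the 50-base words of Prpsap2, 50.8% occur elsewhere in the genome, which limits its value.

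Folate enzymes supply carbon to the steps of Gart and Atic. Of 17 folate and serine genes above the filter, 1 was more than 2-fold higher (Mthfd2l, 0.19 and 0.66 RPKM) and 0 were lower, with a median of -0.02. Mthfd1, the highest of them, had 63.90 RPKM in WT and 85.82 RPKM in G34R cells, with a log2 ratio of 0.43 (0.40 to 0.45). Shmt2 had 38.10 and 48.52 RPKM, whereas Shmt1 had 25.01 and 22.56 RPKM.

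Of 16 pyrimidine features 0 passed 2-fold, with a median of 0.04, and Upp1 was the highest at 102.33 RPKM in WT and 72.07 RPKM in G34R cells. Of 7 genes of ribonucleotide reduction and dNTP control 0 passed, and Rrm2, a subunit of ribonucleotide reductase, had 48.72 and 87.54 RPKM, a log2 ratio of 0.85. The transporter list held genes of the Slc23, Slc28, Slc29 and Slc43 families, not all of them carriers of nucleosides or nucleobases. Its 8 genes above the filter had the lowest median of the pathway lists, -0.56, with 6 below 0. Of these 8, 2 (25%, against 9.64% of all features) were lower past 2-fold, Slc43a3 (0.63 and 0.23 RPKM) and Slc23a1 (0.39 and 0.16 RPKM). Slc29a1, the highest transporter, had 24.31 and 36.68 RPKM.

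Among 13 nucleotide kinases 1 passed 2-fold. Ak7 had 1.43 RPKM in WT and 0.32 RPKM in G34R cells, with a log2 ratio of -2.16, and Nme2, the highest, had 91.29 and 81.86 RPKM. The Myc list held Myc, Mycn and Mycl1 and, beside these Myc genes, Max, Mlx, Mnt, Mxd1, Mxd3 and Mxi1. Of these 9 genes, whose products bind E-boxes, 1 was lower past 2-fold, Mxd1 (0.74 and 0.34 RPKM), which is not a Myc gene. The list median of -0.29 covers both kinds. Mycn, the highest of them, had 30.37 RPKM in WT and 23.29 RPKM in G34R cells, and Myc had 4.76 and 7.49 RPKM. Paics, Atic and Impdh2, the members with an E-box in their window, had log2 ratios of -0.08, 0.16 and 0.001. Pfas had no window to search.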

How the data were processed

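RNA of 1 WT and 1 G34R culture was analysed. The reads were 50 bp, single-end and stranded. The authors used STAR 2.4.2a and the mm9 genome, took primary alignments into Seqmonk and deposited RPKM per gene to 2 decimals, with isoforms merged and transcript length corrected. RPKM is relative to each library's total, so very abundant RNAs shift all values.

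From the deposited RPKM, log2 ratios used a floor of 0.01 RPKM, and calls needed at least 0.25 RPKM in 1 sample and more than 2-fold. With 1 library per group no test was made. Features were matched to GENCODE M1 (mm9) by span and name (26030 of 26127). Depth was the value that placed low RPKM of single-exon genes under 800 bp nearest to whole reads (81 genes in WT, 65 in G34R cells), and this step was checked on simulated data. Precision is given by Poisson and Clopper-Pearson intervals (95%), which cover counting error only and treat each read as independent. No molecular identifiers were used, so reads duplicated by amplification could not be told apart, and the intervals may be too narrow. Words of 50 bases within merged exons were searched in the mm9 genome, and upstream sequences came from RefSeq (GRCm38.p6).

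The members and lists were chosen with earlier results of these data known. Named genes were all members, genes of the lists past 2-fold with at least 1 RPKM, the highest gene of each list, genes within 1 Mb of Hprt with at least 1 RPKM, the start nearest to each member and the 5 features most like Hprt. Further genes are given as examples of their list, chosen after their values were seen. Ak6 was listed but not found among the features. Starts were taken by strand. Alternatives were other pseudocounts, scalings, filters, folds and distances. Python 3.11.15, NumPy 2.4.6, pandas 2.3.3, SciPy 1.17.1, Numba 0.67.0 and matplotlib 3.10.9 were used.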

Additional observations from a re-analysis of the deposited data

How the results depend on the processing

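With 1 added to each RPKM the log2 ratio of Hprt was 4.42, the median within 1 Mb of Hprt -0.0414 and the number of further pathway genes past 2-fold 1. That median was -0.0521 within 0.5 Mb. With RPKM rescaled to the same sum, ratios centred on the median gene and RPKM rescaled to the same upper quartile, the median of the 9 other members was 0.158, 0.167 and 0.0462, and that of the de novo enzymes 0.183, 0.191 and 0.0704. At 1.5-fold, 2 members (Hprt and Adk) and 26 further pathway genes passed, and at 3-fold 2 pathway genes. With at least 1 RPKM in 1 sample 2 pathway genes passed, and with at least 5 RPKM 1. Hprt passed the fold in use under all 11 alternatives for that count, but it was chosen for its ratio, so this adds nothing. The signs of Impdh1 (0.0002 with the same sum, 0.009 when centred) and Impdh2 (-0.07 with the same upper quartile) turned. No paired analysis was possible because each group has 1 library. Leaving out a replicate was not possible either, so the spread between cultures is unknown. Estimated reads assume that the authors' transcript length equals the merged exon length.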
